A study of Mus musculus with 12 samples.

Results

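Spinal cord of Olig2cre/DA-Cat mice was compared with spinal cord of wild-type mice at day 15, with 3 arrays per genotype out of the 12 arrays of the series. The comparison took in all 18194 genes with a named probe set, a probe set being a group of short probes for the same transcript. Olig2cre places Cre recombinase under the control of Olig2, a transcription factor of oligodendrocytes, their precursors and motor neuron progenitors. DA-Cat is a dominant-active β-catenin. Wild-type animals were littermates, and no group carried Cre alone or DA-Cat alone, so the effect of Cre and that of β-catenin cannot be told apart here. The same pair of genotypes was also sampled at day 4, with 3 arrays each. The labels tag the day as a developmental stage. Their treatment protocol describes lysolecithin lesions of the ventrolateral white matter at 8 to 10 weeks of age, with cords taken unlesioned or 14 days after the lesion, so what the days count from is not settled. All samples share that protocol. Each replicate is called biological, and the number of animals behind it is not stated. The p-values measure the spread between these samples, taken for each gene over the day 4 and day 15 arrays together unless stated otherwise.

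β-catenin is the transducer of canonical Wnt signalling. Without a Wnt signal a destruction complex built on Axin marks it for degradation, and with one it enters the nucleus and joins TCF and LEF factors on target genes. Several targets are feedback inhibitors of the pathway, so their transcripts are widely used as readouts of its activity. In the oligodendrocyte lineage, precursors marked by Pdgfra pass through a newly formed stage to mature cells that wrap axons with myelin. Olig2, Sox10, Nkx6-2 and Myrf are transcription factors of that path, and Mbp, Mag and Mog encode proteins of the finished sheath.

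At day 15 the genes that fell included 23 of 36 genes of late oligodendrocytes and 11 of 17 myelin protein genes, and the gene that rose most was Wif1, a secreted inhibitor of Wnt signalling. Of 18194 genes, 533 passed an adjusted p of 0.05, or 2.93% of those tested. They comprised 112 genes that were higher in Olig2cre/DA-Cat (0.616% of all genes) and 421 that were lower (2.31%). Of the 533, 75 belong to the gene lists described below, 61 of them lower and 14 higher. Those lists were chosen with earlier results of these data known, so counts within them are descriptive and not independent support. Most differences were below 2-fold: 10 genes rose and 10 fell by at least that much. The median log2 difference was 0.37 among the higher genes and -0.49 among the lower genes, against 0.02 over all genes. In each of the 533 genes the 3 values of one genotype lay apart from the 3 values of the other, which held for 20.3% of all genes tested. Signals are log2 values, on which a step of 1 is a doubling, and a gene's difference is Olig2cre/DA-Cat minus wild type with its SE. Since whole tissue was measured, fewer cells of a type and less RNA per cell cannot be told apart.

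The arrays were uneven in ways that bear on these counts. Bulk levels of 31 skeletal muscle genes averaged 6.24, 5.50 and 6.98 on the wild-type arrays and 9.46, 5.63 and 7.62 on the Olig2cre/DA-Cat arrays. All 31 had a positive difference, with a median of 1.47, and 0 of the 31 passed the test. On this average the genotypes overlap, with Olig2cre/DA-Cat replicate 2 inside the wild-type range. That replicate also stood nearest to wild type: across probe sets its mean correlation was 0.9952 with the wild-type arrays and 0.9937 with its own group. The 421 lower genes differed from the wild-type mean by a median of -0.55, -0.37 and -0.52 on Olig2cre/DA-Cat replicates 1, 2 and 3, and the 112 higher genes by 0.39, 0.32 and 0.39. Replicate 2 had the smallest shift of the 3 in 312 of the 421 lower genes.

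Leaving out 1 array at a time gave 292 to 935 genes, with 36 to 328 higher and 253 to 607 lower. The high value came without Olig2cre/DA-Cat replicate 2, and 292 and 299 were the counts when wild-type replicate 1 or Olig2cre/DA-Cat replicate 3 was dropped. Across the 6 such fits, 239 of the 533 genes passed every time, 26 of them higher and 213 lower. The 6 day 15 arrays fitted without the day 4 arrays, so with the spread of day 15 alone, gave 136 genes, all among the 533. With the muscle level as a covariate 294 genes passed, of which 279 were among the 533. Without both arrays highest in muscle, replicates 1 and 3 of Olig2cre/DA-Cat, 36 genes passed and 31 were among the 533; the remaining single array was then assumed to vary like the others. Of 73 called genes followed through every setting, 53 passed with the muscle covariate, 42 on the day 15 arrays alone and 16 without both muscle-rich arrays. Those 16 were Wif1, Prss56, Srpx, Cxcr4, Esyt3 and Npy among the higher genes, and Anln, Klhl4, Aspa, Nmral1, Hapln2, Cpm, Creb5, Prr18, Polr3e and Dct among the lower.

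Sex-linked and meningeal genes also differed between arrays. Xist, transcribed from the inactive X chromosome, was 11.02, 5.64 and 11.97 in wild type and 10.73, 12.50 and 12.19 in Olig2cre/DA-Cat. The Y-linked gene Eif2s3y was 8.19, 8.82 and 7.48 in wild type and 7.94, 3.29 and 6.54 in Olig2cre/DA-Cat. Xist was thus low on 1 array and Eif2s3y low on another, and the other 4 arrays carried both signals. Meningeal and fibroblast genes, 17 in all, averaged 8.01, 8.15 and 8.88 in wild type and 8.98, 8.97 and 8.50 in Olig2cre/DA-Cat, with a median difference of 0.43 and 17 of 17 positive; 0 of the 17 passed, and their part in the results below was not tested. Neuron genes averaged 11.46 to 11.65 over the 6 arrays, well above the array medians of 6.14 to 6.19, although the source label names white matter.

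**Figure D1:**
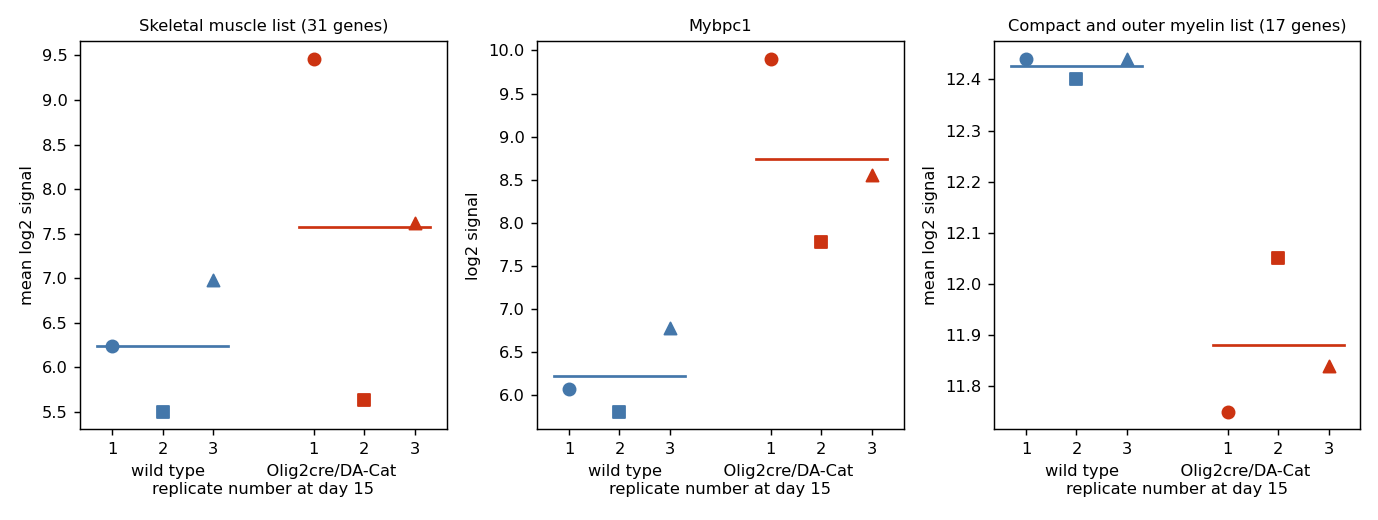
Mean log2 signal of the skeletal muscle list (31 genes), log2 signal of Mybpc1, and mean log2 signal of the compact and outer myelin list (17 genes) on each day 15 array; symbols mark the replicate number and horizontal lines the group means. Olig2cre/DA-Cat replicate 2 has a muscle level of 5.63, inside the wild-type range, while its Mybpc1 signal of 7.78 is above every wild-type array and its myelin level of 12.05 is below every wild-type array.

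Ctnnb1, the gene of β-catenin itself, did not check the allele. It read 13.05, 13.12 and 13.05 in wild type and 13.04, 13.03 and 12.95 in Olig2cre/DA-Cat, and the difference was -0.07 ± 0.07 (adjusted p = 0.693). These probe sets count transcript and do not tell active from wild-type β-catenin.

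In the list of 24 measured Wnt targets and feedback inhibitors 6 genes passed as higher and 0 as lower: Wif1, Notum, Lgr5, Axin2, Tnfrsf19 and Lgr6. The list's median difference was 0.14, against 0.02 over all genes. Leaving out both muscle-rich arrays kept a single Olig2cre/DA-Cat array. The differences were then 0.95 for Notum, 0.44 for Lgr5, 0.61 for Axin2, 0.80 for Tnfrsf19 and 0.47 for Lgr6. With all arrays they were 1.14, 0.51, 0.51, 0.62 and 0.54, in the same order. Wif1, a secreted protein that binds and blocks Wnt ligands, rose most of all genes named here. It read 3.80, 3.65 and 3.95 in wild type and 6.58, 6.56 and 6.81 in Olig2cre/DA-Cat. The difference was 2.85 ± 0.18, or 7.22-fold (adjusted p = 2.99e-05). The wild-type level lies near the bottom of the signal range, where background compresses differences; 14 of the 112 higher genes had a wild-type mean below 5, a limit set with the values in view. Notum, an enzyme that strips the lipid from Wnt proteins, read 6.27, 6.26 and 6.50 against 7.41, 7.29 and 7.74. It rose by 1.14 ± 0.15 (adjusted p = 0.00151). Every Olig2cre/DA-Cat array was above every wild-type array for both inhibitors. Such a gap was present in each of the 533 called genes and in 20.3% of all genes, in either direction.

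Axin2, a scaffold of the destruction complex, went from 7.24, 7.31 and 7.51 to 7.83, 7.97 and 7.81, a rise of 0.51 ± 0.08 (adjusted p = 0.0057; 0.0597 on the day 15 arrays alone). Lgr5, an R-spondin receptor, went from 8.44, 8.49 and 8.30 to 9.0, 8.85 and 8.91, a rise of 0.51 ± 0.07 (adjusted p = 0.00321). When all probe sets of Lgr5 were averaged its difference was 0.24 (adjusted p = 0.0743). Tnfrsf19, a receptor of the tumour necrosis factor family known as a β-catenin target, rose by 0.62 ± 0.10 (adjusted p = 0.00687), and by 0.40 as the mean of its probe sets. Lgr6, a receptor related to Lgr5 and picked after its values were seen, rose by 0.54 ± 0.11 (adjusted p = 0.0192). Its call was lost without wild-type replicate 1, wild-type replicate 2 or Olig2cre/DA-Cat replicate 3 (highest adjusted p = 0.0787). Other targets of the fixed panel did not pass. Lef1, a nuclear partner of β-catenin, differed by 0.23 ± 0.07 (adjusted p = 0.119), Nkd1, an antagonist acting at Dishevelled, by 0.30 ± 0.14 (adjusted p = 0.3), and Apcdd1, a membrane inhibitor, by 0.40 ± 0.14 (adjusted p = 0.167). Without Olig2cre/DA-Cat replicate 1 Apcdd1 passed, at 0.58 (adjusted p = 0.018).

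Among 23 secreted antagonists and enhancers 3 rose and 0 fell, with a median of 0.18. Beside Wif1 and Notum this was Rspo3, an R-spondin that amplifies Wnt signals, at 0.41 ± 0.07 (adjusted p = 0.00698); the day 15 arrays alone gave an adjusted p of 0.0855, and the mean of its probe sets a rise of 0.27. The Wnt ligands, receptors and transducers moved little: 1 of 52 rose, 1 fell and the median was -0.01. Fzd1, a frizzled receptor, rose by 0.40 ± 0.08 (adjusted p = 0.0209), and Wls, which carries Wnt proteins to the cell surface, fell by 0.47 ± 0.09 on the log2 scale (adjusted p = 0.018). Both calls were lost in several fits with 1 array left out, with highest adjusted p-values of 0.0956 for Fzd1 and 0.0801 for Wls; Fzd1 passed only without Olig2cre/DA-Cat replicate 2, and Wls without that array or without wild-type replicate 2. As means of all probe sets neither passed, at 0.21 for Fzd1 (adjusted p = 0.0815) and -0.24 for Wls (adjusted p = 0.108).

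**Figure D2:**
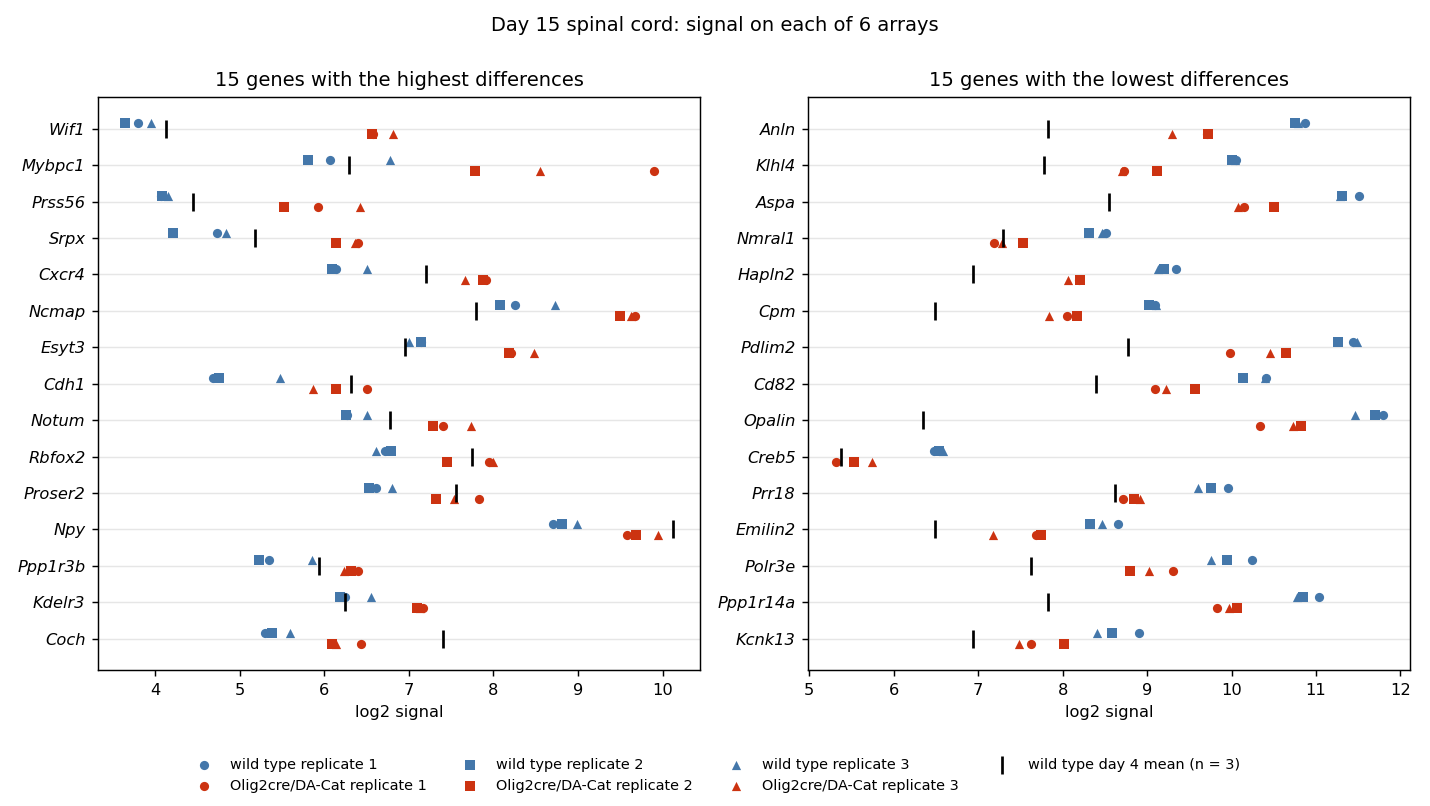
Log2 signal of the 15 genes with the highest and the 15 with the lowest differences on each of the 6 day 15 arrays; blue symbols are wild type, red symbols Olig2cre/DA-Cat, shapes mark replicate numbers, and black ticks the wild-type day 4 mean (n = 3). The blue and red symbols do not overlap for any gene shown, which the choice of genes required; Wif1 runs from 3.65 to 6.81 and Anln from 9.30 to 10.87.

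Several genes that rose most are not classical Wnt readouts. Mybpc1, a myosin-binding protein of slow skeletal muscle, read 6.07, 5.81 and 6.78 in wild type and 9.90, 7.78 and 8.55 in Olig2cre/DA-Cat, and the difference was 2.52 ± 0.49 (adjusted p = 0.0149). Its highest signal lies on the array with the most muscle RNA. In replicate 2, whose muscle level was within the wild-type range, it was still above every wild-type array, and with the muscle level as a covariate its difference was 1.82 (adjusted p = 0.00797). Without both muscle-rich arrays it was 1.56 and did not pass (adjusted p = 0.303). The call was also lost without wild-type replicate 1 (adjusted p = 0.062) or replicate 2 (adjusted p = 0.0627), on the day 15 arrays alone (adjusted p = 0.0842) and with trend and robust settings (adjusted p = 0.0541). At day 4, on other arrays, Mybpc1 differed by 2.97 ± 0.49 (adjusted p = 0.0056), while the muscle list had a median difference of 0.3. The source of the Mybpc1 signal was not tested.

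Prss56, a secreted serine protease, read 4.07, 4.08 and 4.15 in wild type and 5.93, 5.53 and 6.42 in Olig2cre/DA-Cat. It rose by 1.86 ± 0.17 (adjusted p = 0.000301). Cxcr4, the receptor of the chemokine CXCL12 that guides migrating cells, went from 6.14, 6.09 and 6.50 to 7.91, 7.88 and 7.66, a rise of 1.58 ± 0.11 or 2.98-fold (adjusted p = 6.37e-05). It was the 1 gene called among 16 chemokines and chemokine receptors, whose median was 0.09. Npy, the neuropeptide Y, rose from 8.70, 8.81 and 8.99 to 9.58, 9.69 and 9.95, by 0.91 ± 0.10 (adjusted p = 0.000804). All 3 genes passed with any 1 array left out.

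Srpx, a secreted protein with sushi repeats, read 4.73, 4.21 and 4.84 in wild type and 6.40, 6.14 and 6.36 in Olig2cre/DA-Cat, a rise of 1.71 ± 0.14 (adjusted p = 0.000121). Ncmap, a protein of non-compact peripheral myelin, went from 8.25, 8.08 and 8.73 to 9.68, 9.50 and 9.63, a rise of 1.25 ± 0.20 (adjusted p = 0.00485). It was the 1 gene that rose among 14 Schwann cell genes, while Erbb3, Mal and Sox10, which oligodendrocytes also use, fell; the list's median was -0.06. Cdh1, the cell adhesion protein E-cadherin, read 4.69, 4.76 and 5.48 against 6.50, 6.14 and 5.87, a difference of 1.20 ± 0.25 (adjusted p = 0.0245). Its groups lie close together, and the call was lost without wild-type replicate 1, wild-type replicate 2 or Olig2cre/DA-Cat replicate 1 (adjusted p up to 0.104), and with the muscle covariate (adjusted p = 0.0957).

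The other genes with the highest differences rose by 0.79 to 1.20. Esyt3, which tethers the endoplasmic reticulum to the plasma membrane, read 7.14, 7.15 and 7.0 in wild type and 8.21, 8.19 and 8.48 in Olig2cre/DA-Cat. Coch, an extracellular matrix protein known from the inner ear, rose by 0.79 ± 0.11, and Ppp1r3b, which targets a phosphatase to glycogen, by 0.83 ± 0.14. On the day 15 arrays alone Ppp1r3b did not pass (adjusted p = 0.0725). Proser2 rose by 0.92 ± 0.12. Kdelr3, a receptor that returns proteins to the endoplasmic reticulum, rose by 0.81 ± 0.15; its call was lost without wild-type replicate 1 (adjusted p = 0.0549) or wild-type replicate 2 (adjusted p = 0.0519). Rbfox2, a splicing regulator, differed by 1.09 ± 0.22 on its brightest probe set, but the differences of its 4 probe sets ran from -0.02 to 1.09 and 1 of the 2 above a level of 5 was positive; their mean differed by 0.28. Its call held in 2 of the 6 fits with an array left out (adjusted p up to 0.0842).

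Among the lists, the 2 of mature oligodendrocyte genes had the most members that fell. The choice of lists was made with earlier results of these data known, which bears on these counts. Among 36 measured genes of the late oligodendrocyte's cytoskeleton and signalling, 23 fell and 0 rose, and 35 had a negative difference. The median was -0.63. Among 17 compact and outer myelin proteins 11 fell, 0 rose and all 17 were negative, with a median of -0.58. On single arrays the myelin genes averaged 12.44, 12.40 and 12.44 in wild type and 11.75, 12.05 and 11.84 in Olig2cre/DA-Cat. With the muscle level as a covariate 6 myelin genes and 19 late oligodendrocyte genes passed as lower. On the day 15 arrays alone 7 and 10 passed, and without both muscle-rich arrays 0 and 3. Leaving out 1 array gave 5 to 12 myelin genes: 5 without wild-type replicate 1, 7 without wild-type replicate 2, 6 without Olig2cre/DA-Cat replicate 1 and 5 without Olig2cre/DA-Cat replicate 3.

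Anln, an actin-binding scaffold for septins that also line mature myelin, had the lowest difference of the named genes that passed the test. It read 10.87, 10.75 and 10.79 in wild type and 9.71, 9.72 and 9.30 in Olig2cre/DA-Cat, and fell by 1.22 ± 0.10 on the log2 scale (adjusted p = 0.000151). Hapln2, a link protein of the matrix at nodes of Ranvier, went from 9.34, 9.20 and 9.13 to 8.19, 8.21 and 8.06, a difference of -1.07 ± 0.09 (adjusted p = 0.000121). Within each genotype these values lie close together, and the groups are more than 0.5 apart. Hapln2 was the 1 gene called among 21 glial connexin and node genes, whose median was 0.04. Cpm, the membrane enzyme carboxypeptidase M, fell from 9.09, 9.02 and 9.11 to 8.05, 8.17 and 7.84, by 1.05 ± 0.08 on the log2 scale (adjusted p = 0.000121).

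Pdlim2, a cytoskeletal adaptor, read 11.44, 11.26 and 11.48 in wild type and 9.98, 10.64 and 10.45 in Olig2cre/DA-Cat, and the difference was -1.04 ± 0.15. Cd82, a tetraspanin, differed by -1.02 ± 0.14, with its pair of probe sets at -1.02 and -0.16 and their mean at -0.59. Both passed with any 1 array left out. Opalin, a membrane protein of the myelin paranodal loops, read 11.79, 11.70 and 11.46 against 10.34, 10.82 and 10.73. It differed by -1.02 ± 0.21 (adjusted p = 0.0194), and the call was lost without wild-type replicates 1 or 2 or Olig2cre/DA-Cat replicates 1 or 3 (adjusted p up to 0.0835). Ppp1r14a, an inhibitor of myosin phosphatase, differed by -0.93 ± 0.18 (adjusted p = 0.017), and its call was lost without the same arrays (adjusted p up to 0.0771). With the muscle covariate neither passed (adjusted p = 0.077 for Opalin and 0.0682 for Ppp1r14a).

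In the myelin list the smallest p-values belonged to Tspan2, Tmem88b, Ermn and Mobp. Tspan2, a tetraspanin of the sheath, went from 12.30, 12.34 and 12.47 to 11.61, 11.79 and 11.76, a difference of -0.65 ± 0.07 (adjusted p = 0.000843). Ermn, an actin-associated protein of myelinating cells, went from 11.91, 11.78 and 11.76 to 10.76, 11.21 and 10.84, by -0.88 ± 0.14 (adjusted p = 0.00409). Tmem88b fell by 0.80 ± 0.11 and Mobp, a basic protein of the compacted sheath, by 0.52 ± 0.08 on the log2 scale. These 4 genes passed with any 1 array left out and with the muscle covariate, none of them passed without both muscle-rich arrays, and Mobp did not on the day 15 arrays alone (adjusted p = 0.0505). In each of them replicate 2 had the smallest decline of the 3 Olig2cre/DA-Cat arrays.

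The classical myelin genes were less uniform. Mog, of the outermost surface of the sheath, read 11.75, 11.50 and 11.71 in wild type and 10.61, 11.05 and 10.73 in Olig2cre/DA-Cat, and the difference was -0.85 ± 0.16 (adjusted p = 0.013). Without wild-type replicate 1, Olig2cre/DA-Cat replicate 1 or replicate 3 its adjusted p was 0.0612, 0.054 and 0.0592. Mag, a cell adhesion protein facing the axon, read 12.66, 12.64 and 12.71 against 11.88, 12.40 and 12.15, a difference of -0.53 ± 0.11 (adjusted p = 0.024). Its call held only without Olig2cre/DA-Cat replicate 2, and the adjusted p ranged from 0.00318 to 0.0802 over the fits with an array left out. With the muscle covariate Mag differed by -0.41 (adjusted p = 0.0777), and without both muscle-rich arrays by -0.27 (adjusted p = 0.415). Mbp, which glues the membrane layers together, was at 14.69, 14.65 and 14.65 in wild type and 14.59, 14.64 and 14.62 in Olig2cre/DA-Cat. Its difference of -0.04 ± 0.06 did not pass (adjusted p = 0.779), and the brightest probe set on each of the 6 arrays read 14.71 to 14.91. Its 8 probe sets differed by -0.29 to 0.07, 7 of them in the negative direction.

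Of 22 measured transcription factors of the lineage 7 fell and 0 rose, with a median of -0.34 and 3 positive members. The count was 5 with the muscle covariate, 2 on the day 15 arrays alone and 0 without both muscle-rich arrays. Nkx6-2, a homeodomain factor, went from 7.67, 7.60 and 7.91 to 6.70, 7.04 and 6.71, by -0.91 ± 0.10 (adjusted p = 0.000804). Myrf, the membrane-bound regulator of myelin genes, went from 10.28, 10.13 and 10.59 to 9.28, 9.69 and 9.71, by -0.77 ± 0.14 (adjusted p = 0.0106). St18 and Zfp536, zinc finger factors, differed by -0.73 ± 0.12 and -0.54 ± 0.10, and Carhsp1, an RNA-binding protein kept in this list, by -0.67 ± 0.08. These 5 calls held with any 1 array left out. On the day 15 arrays alone Myrf (adjusted p = 0.0829), St18 (0.0779) and Zfp536 (0.108) did not pass, and the mean of the Zfp536 probe sets was -0.23 (adjusted p = 0.152). With the replicate number as a block Zfp536 also missed the threshold (adjusted p = 0.052).

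Sox10 and Olig2, which are on from the precursor stage, fell less firmly. Sox10 read 10.17, 10.35 and 10.66 in wild type and 9.52, 9.95 and 9.87 in Olig2cre/DA-Cat, and the difference was -0.61 ± 0.13 (adjusted p = 0.0209; 0.0833 with the muscle covariate). Without wild-type replicate 2, wild-type replicate 3 or Olig2cre/DA-Cat replicate 1 its adjusted p was 0.0558, 0.059 and 0.0661. Olig2 read 9.39, 9.41 and 9.41 against 8.68, 9.08 and 9.12, a difference of -0.44 ± 0.10 (adjusted p = 0.0278). Its call was lost without any 1 of the wild-type arrays (adjusted p up to 0.0855), with the muscle covariate (adjusted p = 0.108) and on the day 15 arrays alone (adjusted p = 0.18); the lowest of its values was on replicate 1. Olig2 is also the gene whose regulation drives Cre. Olig1 differed by -0.26 ± 0.08 (adjusted p = 0.116) and passed without Olig2cre/DA-Cat replicate 3, at -0.36 (adjusted p = 0.0261).

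Genes of the precursor stage did not pass the test. Of 18 precursor genes 0 rose and 0 fell, with a median of -0.07. Pdgfra, the growth factor receptor of precursors, read 9.72, 9.98 and 10.03 in wild type and 9.72, 9.97 and 9.77 in Olig2cre/DA-Cat, and differed by -0.09 ± 0.09 (adjusted p = 0.654). The values of the genotypes overlap. Of 19 genes of newly formed oligodendrocytes 1 fell, Enpp6, a choline phosphodiesterase, at -0.65 ± 0.14 (adjusted p = 0.0324); the list's median was -0.19 and 17 were negative. Without wild-type replicates 2 or 3 or Olig2cre/DA-Cat replicates 1 or 3 the call of Enpp6 was lost (adjusted p up to 0.107), as it was with the muscle covariate (adjusted p = 0.12). Cell division genes showed 0 called of 29 and a median of 0.00.

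Promoter stretches of lower genes are shown because Myrf, which binds CTGGCAC and CTGGTAC, fell along with them. Windows from 250 bases before to 50 after the gene start were taken from RefSeq (GRCm38.p6) and searched on both strands; motifs were settled on after trial searches of these windows, so the shares of matching genes are not evidence for either factor. Of 25 genes, the 15 lowest and the lower myelin genes, 22 had a window and 7 of those held a match (31.8%), against 8.36% of the 14453 tested genes with a window and 7.10% of all 32851 windows. The matches of the other 2, Cpm and Opalin, reach past the gene start and are not shown. Each stretch below lies before the gene start, reads along the gene's strand and has the match in capitals. Those of Hapln2, Mog and Prr18 read as the reverse complement.
Hapln2: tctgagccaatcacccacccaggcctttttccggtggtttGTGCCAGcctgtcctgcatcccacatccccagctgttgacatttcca
Mag: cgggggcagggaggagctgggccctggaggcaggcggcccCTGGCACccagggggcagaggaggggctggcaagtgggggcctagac
Mog: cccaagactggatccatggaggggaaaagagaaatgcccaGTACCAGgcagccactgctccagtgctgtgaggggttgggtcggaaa
Prr18: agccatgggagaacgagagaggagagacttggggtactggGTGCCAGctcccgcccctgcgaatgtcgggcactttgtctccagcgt
Emilin2: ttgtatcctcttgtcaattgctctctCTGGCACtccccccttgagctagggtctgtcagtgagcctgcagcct
They lie at chr3:88027609-88027695 (Hapln2, minus strand), chr7:30914885-30914971 (Mag, minus), chr17:37023435-37023521 (Mog, minus), chr17:8340513-8340599 (Prr18, plus) and chr17:71311734-71311806 (Emilin2, minus). Of 14 windows of the 15 highest and the higher Wnt genes, 2 held this motif (14.3%), those of Ncmap and Kdelr3.

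The TCF and LEF motif was searched as CTTTGAT and CTTTGAA. It was found in 0 of the 22 windows of lower genes and in 2 of the 14 windows of higher genes (14.3%), against 8.08% of the tested genes and 8.65% of all windows. Both are shown, since Tnfrsf19 and Prss56 rose; each match reads as capitals, on the gene's strand for Prss56 and as the reverse complement for Tnfrsf19.
Tnfrsf19: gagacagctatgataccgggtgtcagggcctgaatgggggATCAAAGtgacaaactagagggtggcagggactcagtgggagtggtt
Prss56: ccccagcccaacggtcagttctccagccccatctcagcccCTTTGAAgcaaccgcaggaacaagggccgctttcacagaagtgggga
These lie at chr14:61038143-61038229 (minus strand) and chr1:87183091-87183177 (plus strand). The Prss56 window holds a further match as the reverse complement, in the stretch chr1:87183161-87183247. A match is a run of letters and not evidence that a factor binds.

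Of 32 genes of fatty acid, sphingolipid and galactolipid synthesis, which supply myelin lipids, 10 fell and 0 rose, with a median of -0.22 and 6 positive members. The count was 5 with the muscle covariate, 4 on the day 15 arrays alone and 1 without both muscle-rich arrays; it was 6 without wild-type replicate 1 or 3 and 5 without Olig2cre/DA-Cat replicate 3. Aspa, which cleaves N-acetylaspartate and so frees acetate in oligodendrocytes, read 11.51, 11.31 and 11.28 in wild type and 10.15, 10.50 and 10.08 in Olig2cre/DA-Cat, and the difference was -1.12 ± 0.12 (adjusted p = 0.000729). Fa2h, which hydroxylates the fatty acids of galactolipids, went from 12.06, 12.01 and 12.13 to 11.21, 11.48 and 11.34, by -0.72 ± 0.08 (adjusted p = 0.000843). Acss2, which turns acetate into acetyl-CoA, differed by -0.53 ± 0.07 (adjusted p = 0.00171), and Agpat4, an acyltransferase of phospholipid synthesis, by -0.55 ± 0.08 (adjusted p = 0.00237). The others that fell were Elovl1, Cers2, Degs1, Sgpp1, Ugt8a and Enpp6.

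Of 20 cholesterol synthesis genes 6 fell, 0 rose and 19 were negative, with a median of -0.28. The count was 2 with the muscle covariate and 0 on the day 15 arrays alone or without both muscle-rich arrays. It was 10 without Olig2cre/DA-Cat replicate 2 and 2 or 3 without any other single array. Sc5d and Cyp51, enzymes of the later steps, differed by -0.43 ± 0.07 (adjusted p = 0.00452) and -0.46 ± 0.08 (adjusted p = 0.00868) and passed with any 1 array left out. Msmo1 read 12.13, 12.12 and 12.27 in wild type and 11.42, 11.91 and 11.61 in Olig2cre/DA-Cat, by -0.52 ± 0.11 (adjusted p = 0.019). Lss, which closes the sterol rings, differed by -0.57 ± 0.13 (adjusted p = 0.0319). Both values of replicate 2 lay nearer to wild type than those of the other Olig2cre/DA-Cat arrays. With 1 array left out the adjusted p reached 0.0799 for Msmo1, which passed only without wild-type replicate 2 or Olig2cre/DA-Cat replicate 2, and 0.106 for Lss, which passed only without Olig2cre/DA-Cat replicate 2. The mean of the Msmo1 probe sets, which ran from -0.52 to 0.08, was -0.22 (adjusted p = 0.403), and that of Lss -0.43 (adjusted p = 0.126). Hmgcs1 and Idi1, of the early steps, also fell.

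Further genes among the lowest differences are not in the myelin lists. Klhl4, a kelch-like protein, was 10.05, 10.01 and 10.04 in wild type and 8.73, 9.12 and 8.70 in Olig2cre/DA-Cat, and the difference was -1.18 ± 0.11 (adjusted p = 0.00038). Nmral1, an NADPH sensor, went from 8.51, 8.31 and 8.46 to 7.19, 7.53 and 7.28, by -1.09 ± 0.09 (adjusted p = 0.000121). Creb5, a transcription factor of the CREB family, differed by -1.0 ± 0.12 (adjusted p = 0.001), Prr18 by -0.96 ± 0.09 (adjusted p = 0.000261) and Emilin2, an extracellular matrix glycoprotein, by -0.94 ± 0.15 (adjusted p = 0.00477). Polr3e, a subunit of RNA polymerase III, differed by -0.94 ± 0.14, and Kcnk13, a background potassium channel, by -0.92 ± 0.14. All 7 passed with any 1 array left out. On the day 15 arrays alone Emilin2 (adjusted p = 0.0548), Polr3e (0.0597) and Kcnk13 (0.0669) did not, and without both muscle-rich arrays Emilin2 (0.13) and Kcnk13 (0.221) did not. As means of all probe sets the differences were -0.72 for Klhl4, -0.35 for Creb5 and -0.50 for Kcnk13, and all 3 passed.

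The next genes, 3 receptors and an enzyme, were picked after their values were seen. Tyro3, a receptor tyrosine kinase, differed by -0.80 ± 0.11 (adjusted p = 0.00185), Itgb4, the integrin β4 chain, by -0.75 ± 0.13 (adjusted p = 0.00687), and Erbb3, a neuregulin receptor, by -0.77 ± 0.10 (adjusted p = 0.00151; -0.39 as the mean of its probe sets). On the day 15 arrays alone Itgb4 did not pass (adjusted p = 0.0786). Dct, an enzyme known from melanin synthesis, read 6.59, 6.61 and 6.54 in wild type and 5.64, 5.86 and 5.83 in Olig2cre/DA-Cat, and the difference was -0.80 ± 0.08 (adjusted p = 0.000403).

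Other signalling pathways contributed single genes. Over all genes 0.616% were called higher and 2.31% lower, so 1 call in a list this small says little about a pathway. Of 16 Hedgehog genes 1 rose and 1 fell. Hhip, a decoy for Hedgehog ligands, went from 8.31, 8.20 and 8.31 to 7.38, 7.61 and 7.42, by -0.80 ± 0.09 (adjusted p = 0.00103). Gli1, a transcription factor and target of the pathway, rose by 0.30 ± 0.06 (adjusted p = 0.0243), and its call was lost without any wild-type array or without Olig2cre/DA-Cat replicate 3 (adjusted p up to 0.11). Of 25 BMP and Id genes 1 fell, Smad7, an inhibitory Smad, at -0.65 ± 0.08 (adjusted p = 0.00151). Of 22 Notch genes 1 rose, Hey1, a target gene, at 0.29 ± 0.06 (adjusted p = 0.017); without wild-type replicates 1 or 2 or Olig2cre/DA-Cat replicate 3 its call was lost (adjusted p up to 0.0771).

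Genes of other cell types were nearly all below the threshold. Of 20 astrocyte genes and 14 reactive astrocyte genes 0 passed, with medians of 0.06 and 0.13. Gfap, the intermediate filament of astrocytes, read 12.81, 12.80 and 13.06 in wild type and 12.77, 13.00 and 12.72 in Olig2cre/DA-Cat, and the difference was -0.06 ± 0.10 (adjusted p = 0.818). Of 20 neuron genes 0 passed, although 19 were positive with a median of 0.13, and of 14 motor neuron genes 0 passed, with 14 positive and a median of 0.14. Single neuronal genes outside the rule did pass: Syp, of synaptic vesicles, at 0.29 ± 0.06 (adjusted p = 0.0268), and L1cam, an axonal adhesion protein, at 0.33 ± 0.07 (adjusted p = 0.0262). Each passed in 2 of the 6 fits with 1 array left out (adjusted p up to 0.0913 and 0.115). Microglia and macrophage genes showed 0 called of 18, with a median of -0.09 and 17 negative. Of 15 endothelial genes 1 rose, Egfl7, at 0.22 ± 0.05 (adjusted p = 0.0478), and the call held in 1 of the 6 fits with an array left out.

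**Figure D3:**
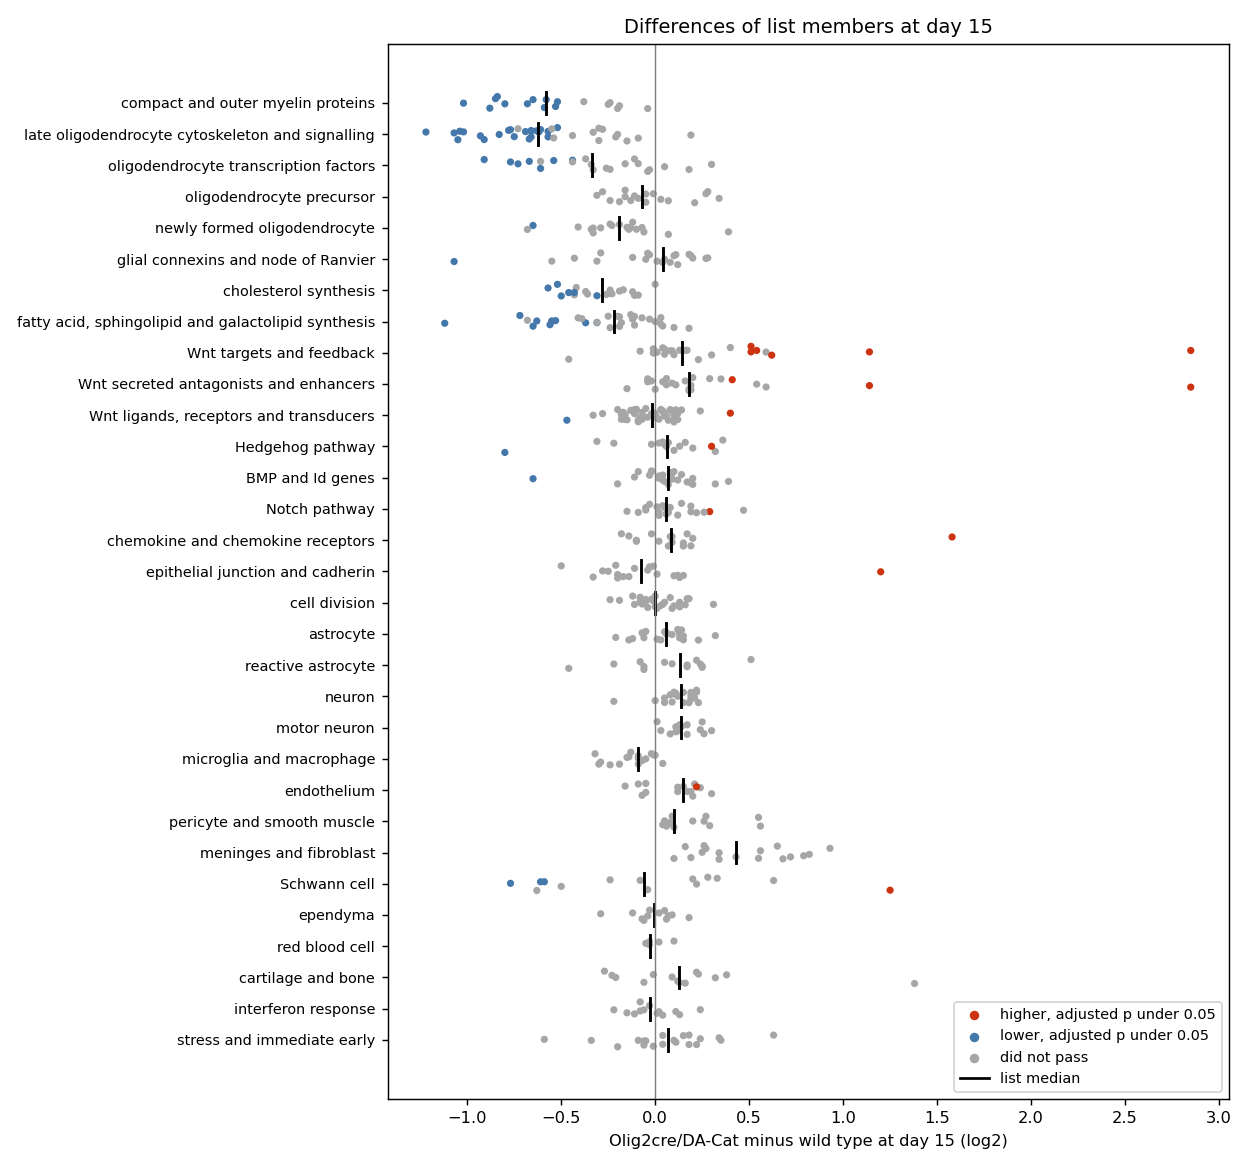
Log2 difference between Olig2cre/DA-Cat and wild type at day 15 for every measured member of 31 gene lists; each point is a gene, red passed the test as higher, blue as lower, grey did not pass, and black bars are list medians. Blue points gather in the myelin and late oligodendrocyte lists (medians -0.58 and -0.63), while the precursor list has a median of -0.07 and 0 genes called.

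Set beside the same genotypes at day 4, measured on other arrays, the differences of day 15 took several forms. Of 18194 genes, 64 (0.352%) passed the test of the difference between the genotype effects of the days, and 41 of these were among the 533. Mog differed by -3.46 at day 4 and by -0.85 at day 15, Mobp by -3.02 and -0.52, and Mag by -2.48 and -0.53. The adjusted p-values of the difference between days were 0.000144, 1.41e-06 and 0.000108. Mbp differed by -1.70 at day 4 and -0.04 at day 15 (adjusted p of the difference 4.15e-06); its day 15 signal lies near the top of the range, so that value is not read as the size of its change. For Mog, Mobp and Mag the difference was nearer to 0 at day 15. The day 15 wild-type mean of Mobp, 13.86, is also high in the range, and whether this compressed its difference was not tested.

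A second form ran the other way. Nmral1, Cpm and Creb5 differed by 0.01, -0.22 and -0.09 at day 4 and by -1.09, -1.05 and -1.0 at day 15, with adjusted p-values of the difference of 0.00134, 0.00712 and 0.043. In wild type the day 4 and day 15 means were 7.29 and 8.42 for Nmral1, 6.49 and 9.07 for Cpm, and 5.37 and 6.53 for Creb5. The day 4 level of Creb5 is near the limit of 5 used above, and background may compress its day 4 difference. Srpx differed by 0.02 at day 4 and 1.71 at day 15 (adjusted p of the difference 0.00134). Its wild-type means, 5.18 at day 4 and 4.60 at day 15, also lie near that limit, so background may compress its differences. For Aspa the effects were -0.36 and -1.12, and that difference between days did not pass (adjusted p = 0.0906).

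Among the rising genes Prss56 differed by 3.54 at day 4 and 1.86 at day 15 (adjusted p of the difference 0.00796), and Nkd1 by 2.15 and 0.30 (adjusted p of the difference 0.000935). Wif1 differed by 2.83 and 2.85, and Cxcr4 by 1.14 and 1.58; neither difference between days passed (adjusted p = 0.987 and 0.371). Axin2 and Notum had effects of 1.05 and 2.09 at day 4 against 0.51 and 1.14 at day 15, with adjusted p-values of the difference of 0.0925 and 0.0906.

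**Figure D4:**
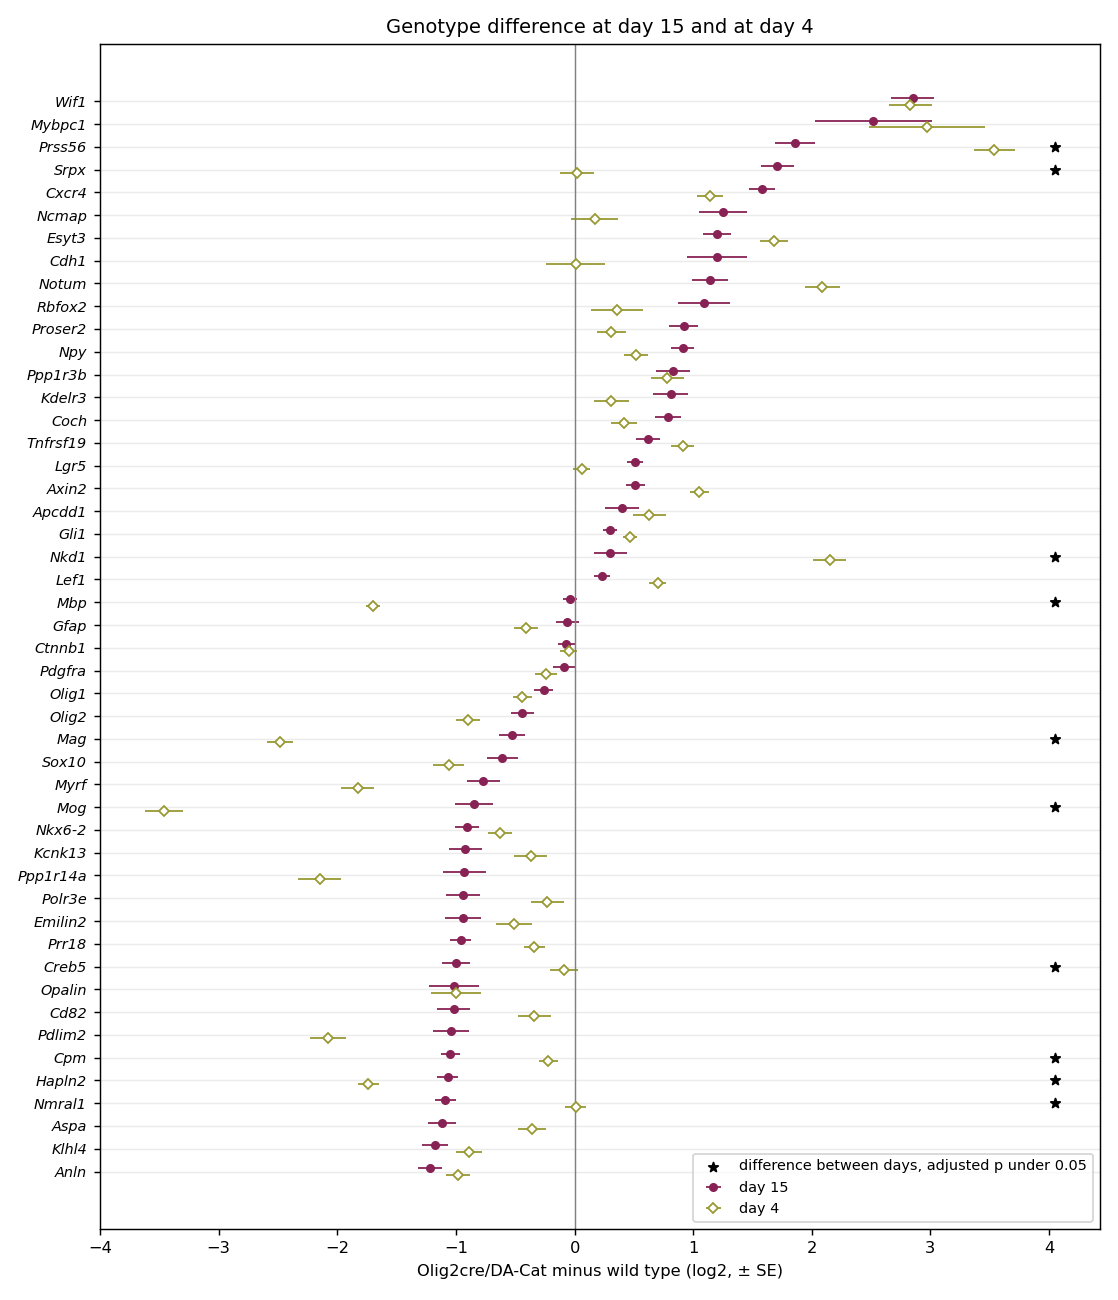
Log2 difference between Olig2cre/DA-Cat and wild type ± SE from the 12-array fit at day 15 (filled circles) and day 4 (open diamonds) for the genes with the highest and lowest differences and the fixed panel; stars mark genes whose effects differ between days with an adjusted p under 0.05. Mog lies at -3.46 at day 4 and -0.85 at day 15, Srpx at 0.02 and 1.71, and Wif1 at 2.83 and 2.85.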

How the data were processed

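The authors deposited 1 log2 signal per probe set and array in the series' value table, from total RNA labelled for Affymetrix 3' arrays, per the labels' protocols. The log2 scale was inferred from the range of the values; background correction, summarisation and normalization are not given in the sources used here. Array data carry no read depth, and the number of arrays limits the precision.

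Of 45101 probe sets, 34958 had 1 gene symbol, 932 several and 9211 none in the platform annotation; 34754 matched a RefSeq gene table (GRCm38.p6) by Entrez identifier. Each gene was represented by its brightest probe set (mean of 12 arrays), which gave 18194 genes. All 12 arrays were fitted in limma 3.58.1 (R 4.3.3; lmFit, contrasts.fit, eBayes) with 1 mean per group; Benjamini-Hochberg adjustment ran over all genes, at 0.05. The fit was tested on simulated data: of 100 genes changed by 0.5 log2 at day 15 it recovered 77%, and of 100 changed by 1 log2 97%. The simulated noise was independent between genes, with the same spread in every group and no shift shared by an array. These rates therefore do not cover uneven arrays such as those described above.

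The members and the 35 gene lists were chosen with earlier results of these data known; 645 of 695 list genes were measured. Named genes were the 15 highest and 15 lowest called genes without overlap (clone names and sex-linked genes passed over), a fixed panel, and up to 4 members with the smallest p per list. Alternatives were other normalization, variance settings, array weights, filters, probe set means, covariates, a replicate block and left-out arrays. Replicate numbers were not taken to pair the samples.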

Additional observations from a re-analysis of the deposited data

Results flagged for a closer look

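For 17 of the genes given in the text the genotype effect differed between the days in the 12-array limma fit, by an interaction test with adjusted p under 0.05 over all genes. The values are the log2 effect at day 15 minus that at day 4. Among myelin genes and their enzymes it was 2.61 for Mog, 2.50 for Mobp, 2.45 for Ermn, 2.01 for Tmem88b, 1.95 for Mag, 1.76 for Mal, 1.65 for Mbp, 1.55 for Fa2h, 1.54 for Enpp6 and 0.67 for Hapln2. The effects of these genes were more negative at day 4. The day 15 signal of Mbp lies near the top of the range, so its value is not read as a size. Mobp and Mal, with day 15 wild-type means of 13.86 and 13.80, are also high in the range, and compression of their differences was not tested.

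Among the other lower genes it was -1.11 for Nmral1, -0.97 for Dct, -0.91 for Creb5 and -0.83 for Cpm, whose effects were more negative at day 15. The wild-type day 4 means of Dct and Creb5 were 5.18 and 5.37, near the limit of 5, where background may compress differences. Among Wnt-related and other higher genes it was 1.69 for Srpx, -1.68 for Prss56 and -1.85 for Nkd1. Leaving out 1 day 15 array at a time gave 49 to 87 genes that differed between days, and day 4 arrays were not left out in turn. With 3 arrays per group, an outlying value of a single gene cannot be told from ordinary spread.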

How the results depend on the processing

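The number of genes called at day 15 depended on the processing, and no called gene of the 81 followed changed direction under any alternative run. Of 1275 such gene and setting pairs, 1035 kept their side of the threshold, 236 lost it and 4 gained it. From 533 genes (112 higher, 421 lower), the day 15 arrays alone gave 136 (18 higher, 118 lower), the muscle covariate 294 (40 and 254), the Eif2s3y covariate 930 (312 higher) with 103 past 2-fold, the genes without the dimmest 50% 828 (247 higher) with 12 past 2-fold, trend and robust settings 218 higher and array weights 198 higher. The added alternative without the 2 arrays with the most muscle RNA, chosen after seeing the data, gave 36 (8 and 28), 12 past 2-fold, and 0 myelin, 3 late oligodendrocyte, 1 Wnt target, 0 transcription factor, 0 cholesterol and 1 fatty acid and sphingolipid genes.

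Myelin genes called lower, 11 in all, became 7 on the day 15 arrays alone and 6 with the muscle covariate. Late oligodendrocyte genes went from 23 to 10 on the day 15 arrays alone. Wnt targets went from 6 to 3 without the dimmest genes. That setting tested 53 of the 73 called genes followed, and 53 passed. The Wnt targets missing from its count had been filtered out before the test. Lineage transcription factors went from 7 to 2 on the day 15 arrays alone, cholesterol genes from 6 to 0, and fatty acid and sphingolipid genes from 10 to 4; the latter pair became 2 and 5 with the muscle covariate and 14 and 16 with the Eif2s3y covariate, and cholesterol genes 3 with the mean of all probe sets. Genes that differed between days, 64, became 108 with trend and robust settings, 118 with array weights and 117 without the dimmest genes. Leaving out 1 array gave 292 to 935 genes, 36 to 328 higher, 253 to 607 lower, 15 to 51 past 2-fold, 5 to 12 myelin, 18 to 26 late oligodendrocyte, 5 to 7 Wnt target, 5 to 9 transcription factor, 2 to 10 cholesterol, 5 to 14 fatty acid and sphingolipid and 49 to 87 between-day genes. The cause of these shifts was not tested.

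With the replicate block 360 genes passed, 52 higher, and 2 cholesterol genes. Same-numbered arrays of the genotypes deviated together with r of 0.17, 0.18 and 0.02, and differently numbered arrays with r of -0.22 to 0.08. The labels name no pairing, and the numbers were not taken to pair samples. Quantile normalization and the mean of all probe sets gave 584 and 473 genes.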
